A study of Mus musculus with 8 samples.

Results

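H3K9me3, the trimethylation of lysine 9 of histone H3, was examined at genes of cell adhesion and axon guidance in colon crypts of mice. The members were all H3K9me3 peaks whose closest gene within 5 kb has a name of 1 of 16 families, namely cadherins, protocadherins outside the clustered locus, catenins of the Ctnna and Ctnnd groups, contactins, contactin-associated proteins (Cntnap), neurexins, neuroligins, Lrrtm proteins, IgLON proteins, Dscam proteins, Eph receptors, semaphorins, plexins, Slit, Robo and Unc5. This gave 1552 of the 53761 peaks (2.89%), or 9.90% of the peaks that have a gene. The peaks were taken by gene name, with no cut on a measured value.

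Chromatin came from whole crypt isolates of the colon of C57BL/6 males, in which 3 ChIP libraries from Smarcad1-KO mice were compared with 3 from WT mice. The KO mice carried floxed Smarcad1 alleles (fl/fl) and a Cre transgene under the Villin (Vil1) promoter, which acts in the intestinal epithelium, so that any other cell in the isolate kept the gene. Age was not given in the labels, and neither was a floxed allele or transgene for the WT mice. One unenriched input library per genotype, WT and KO, served as background, so the input has no replicate error. The study calls the libraries of a genotype biological replicates, while the labels do not tie each to a mouse of its own, so p-values measure the spread between these libraries.

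H3K9me3 is the mark of constitutive heterochromatin, is read by HP1 proteins and covers repeats and many long, silent stretches of the genome. Cadherins join cells through their extracellular repeats and are tied to actin by catenins, while neurexins, neuroligins, contactins, Cntnap and IgLON proteins act mainly at synapses and axons. Slit, semaphorins and netrins are guidance cues that are received by Robo, plexins and Unc5 proteins, and Eph receptors bind ephrins on neighbouring cells. In the gut epithelium, E-cadherin (Cdh1), LI-cadherin (Cdh17) and alpha-E-catenin (Ctnna1) hold cells together, and EphB receptors position cells along the crypt. Smarcad1 is a chromatin remodeller of the SNF2 family that is known for keeping heterochromatin.

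Increases in KO were found in CpG-rich peaks over a gene start (Cdh8) or 4 bp from a transcript start (Pcdh8), and in intron peaks. For each of 3 peaks that rose, 1 window of 300 bases is shown so that their base composition can be compared. All are GRCm38, plus strand, in lower case with every CpG in capitals. The Cdh8 window (chr8:99416472-99416771) holds the bases directly before the annotated start of this gene, which is on the minus strand, and comes from a peak over this start that rose. The Epha6 (chr16:60516450-60516749) and Pcdh9 (chr14:93032400-93032699) windows are from introns, in peaks that also rose.
Cdh8: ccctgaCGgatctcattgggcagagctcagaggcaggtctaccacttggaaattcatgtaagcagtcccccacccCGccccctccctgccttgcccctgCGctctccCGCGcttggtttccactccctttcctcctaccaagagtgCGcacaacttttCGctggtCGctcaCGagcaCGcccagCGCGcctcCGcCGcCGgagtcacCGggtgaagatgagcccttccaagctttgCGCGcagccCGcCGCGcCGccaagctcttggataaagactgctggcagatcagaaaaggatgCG
Epha6: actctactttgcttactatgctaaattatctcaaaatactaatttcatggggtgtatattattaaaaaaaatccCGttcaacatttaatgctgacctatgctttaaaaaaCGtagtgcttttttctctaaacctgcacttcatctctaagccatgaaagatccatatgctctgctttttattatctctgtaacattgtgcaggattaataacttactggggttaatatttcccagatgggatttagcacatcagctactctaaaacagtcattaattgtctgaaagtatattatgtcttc
Pcdh9: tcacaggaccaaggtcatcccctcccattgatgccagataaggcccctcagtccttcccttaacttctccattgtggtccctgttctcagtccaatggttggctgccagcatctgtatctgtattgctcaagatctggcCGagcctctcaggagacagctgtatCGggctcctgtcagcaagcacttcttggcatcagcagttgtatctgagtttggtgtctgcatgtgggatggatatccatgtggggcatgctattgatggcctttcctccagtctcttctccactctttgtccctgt
The Cdh8 window held 23 CpG with 62.7% GC. The Epha6 and Pcdh9 windows held 2 CpG each. Over whole peaks, the members had a median of 5.83 CpG per kb against 6.67 for all peaks, so the Cdh8 window stood far above the usual member and the intron windows did not.

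As checks of the genotype, Smarcad1 had 0 peaks and thus could not be read from this mark. The 1 peak at Vil1, the gene whose promoter drives the Cre transgene, rose from 5.26 ± 0.49 (SD, n = 3) in WT to 10.9 ± 0.19 (SD, n = 3) in KO on the log2 scale of reads per peak (limma adjusted p = 1.24e-35). The input held 133 reads there in WT and 1111 in KO, so the input moved with this peak. The depth was low throughout. The median number of reads per peak, recovered from the steps of the deposited values, was 14 to 20 in the 6 ChIP libraries over all peaks and 14 to 19 over the members.

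Most of the member peaks lay in a small set of genes, many of them very long. Of 125 annotated protein-coding genes whose names match, 68 had a peak and 57 had none (2 of the latter, Unc50 and Unc5cl, match by name only). Genes with at least 10 peaks numbered 30 and held 1452 member peaks (93.6%). The 7 genes with most peaks held 720 (46.4%). These were Cdh18, a type II cadherin of the brain (125 peaks), the contactin-associated Cntnap5a (112), the protocadherin Pcdh9 (112), the protocadherin Pcdh15 of the hair cell tip link (103), the axonal contactins Cntn4 (95) and Cntn5 (90), and alpha-T-catenin, Ctnna3 (83). At the other end, 18 genes had 1 peak each.

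**Figure D1:**
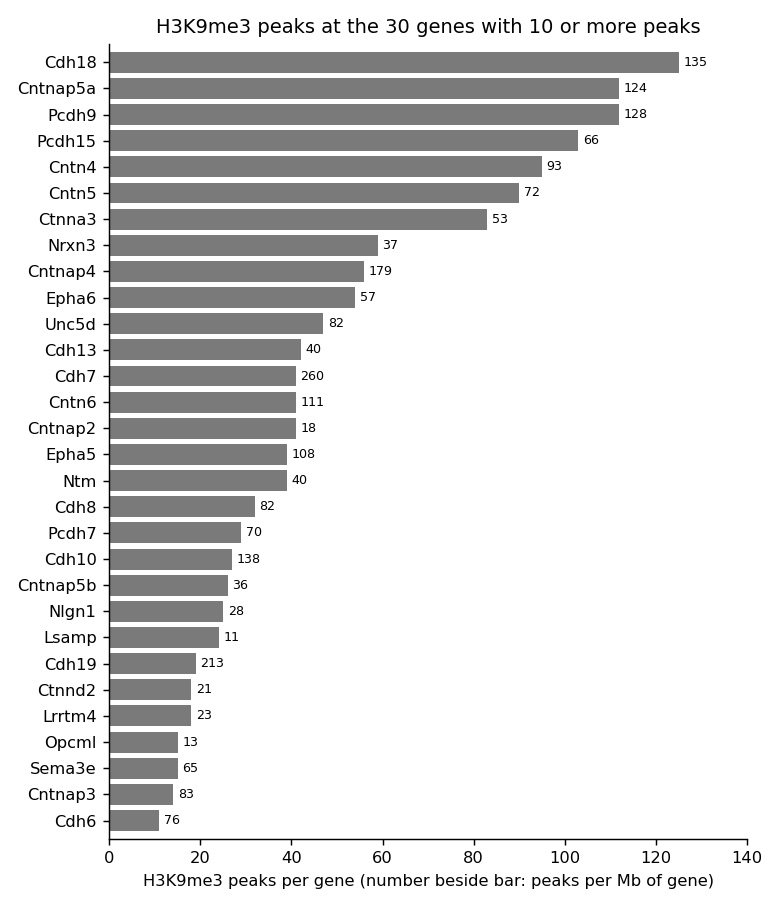
Number of H3K9me3 peaks (x axis) at each of the 30 genes with at least 10 peaks (y axis), with peaks per Mb of gene beside each bar. Cdh18 leads with 125 peaks, while the shorter Cdh7 has 41 peaks at the highest density of these genes, 260 per Mb.

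Length went with having a peak. The median gene length was 413 kb for the 68 genes with a peak and 27.9 kb for the 57 without. Length alone did not set the number, as Sema5a, a transmembrane guidance cue of 452 kb, and Slit2, a secreted ligand of Robo receptors, had 0 peaks. Among protein-coding genes of at least 500 kb, the 29 adhesion and guidance genes had a median of 22.7 peaks per Mb (quartiles 7.02 and 56.7), and each of them had a peak. The 201 other genes of that length had a median of 6.68 per Mb (quartiles 2.61 and 15.7), and 29 of them had none. These others are all genes outside the 16 name families. They include further adhesion and guidance genes, such as Tenm3 (154 per Mb, the densest long gene), Cadm2 (79.8), Dcc (36.4) and Tenm2 (12.2). The groups were not matched for chromosome or kind of gene model. The genome as a whole held 20.3 peaks per Mb. By the same pooled measure, all peaks over all length, the long adhesion genes held 39.3 per Mb and the other long genes 17.8. Of the 10 densest long genes, 4 were members (Cdh18, Pcdh9, Cntnap5a and Cntn4), as were 14 of the densest 50. Peaks covered a median of 2.87% of the long adhesion genes and 0.843% of the others. Genes that lie side by side or share chromatin are not independent replicates, and these densities are given as a description without a test.

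**Figure D2:**
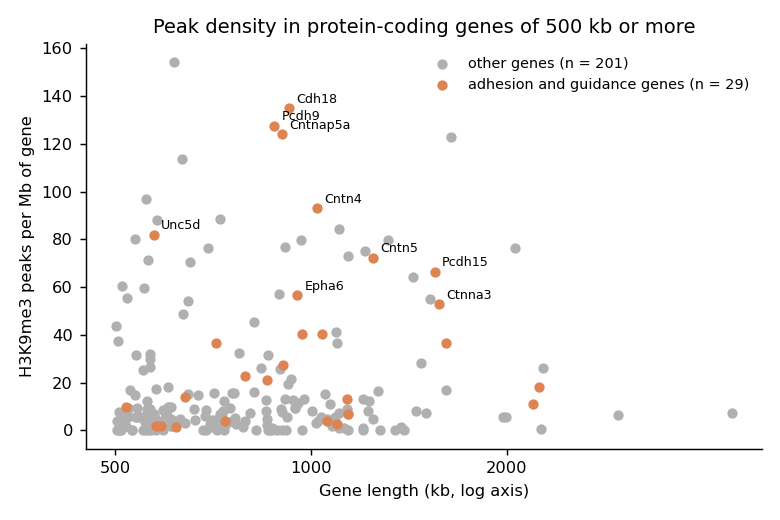
Peaks per Mb (y axis) against gene length in kb (x axis, log scale) for protein-coding genes of at least 500 kb, with 29 adhesion and guidance genes in orange and 201 other genes in grey. Named points have more than 50 peaks per Mb. The orange points run from 1.61 to 135 peaks per Mb and the grey ones from 0 to 154, with medians of 22.7 and 6.68. Grey points include adhesion genes outside the 16 name families, such as Tenm3.

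The families differed in how many of their genes carried the mark. All 3 IgLON genes (Lsamp, Ntm and Opcml, GPI-anchored adhesion molecules of neurons) and all 3 neurexins had peaks, and all 3 IgLON genes had at least 10. Cadherins had 323 peaks at 14 of 23 genes, Cntnap 258 peaks at 6 of 7, protocadherins 251 at 8 of 12 and contactins 233 at 5 of 6. The guidance families had fewer. Semaphorins had 24 peaks at 6 of 20 genes, with 15 of them at Sema3e alone, and plexins had 6 peaks at 4 of 9. The Slit ligands had 2 peaks at 2 of 3 genes and their Robo receptors 8 peaks at 2 of 4, whereas the netrin receptor Unc5d held 47 of the 55 Unc5 peaks. Among Eph receptors, Epha6 (54 peaks) and Epha5 (39) held most of the 100 peaks.

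Most members known from gut epithelium had no peak. Of 12 such genes, 10 had 0 peaks, namely Cdh1, Cdh17, Ctnnd1 (p120-catenin), Epha1, Epha2, Ephb2, Ephb3, Ephb4, Sema4g and Plxnb2. Ctnna1 had 1 peak and Sema3c, a secreted semaphorin, had 3. The 10 genes run from 14297 bp (Sema4g) to 188450 bp (Ephb2), below the median of 413 kb for members with a peak. Of all 125 genes matching by name, 57 had no peak. Length and epithelial role were not told apart. A gene with no peak in this list had none called on the pooled libraries, which does not show that the mark is absent there.

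Within the genes, the peaks lay in introns and ran evenly along the gene. Introns held 1426 member peaks (91.9%), against 63.7% of the 13846 other peaks whose gene was found in the annotation, and coding exons held 90 (5.80%). The position along the gene, from 0 at its start, had quartiles at 25.6%, 50.3% and 75.5%. An annotated transcript start lay under 14 member peaks (0.902%) and under 652 of those other peaks (4.71%). The members were poorer in repeats, with a median of 22.3% soft-masked bases against 33.3% for other peaks at genes and 40.7% for peaks with no gene nearby. Their median GC content was 39.9% against 42.8% and 41.6%.

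In WT, the member peaks were of usual width and moderate level. Their median width was 1050 bp, the same as over all peaks, against 1200 bp for other peaks at genes. Of the members, 1 (0.064%) reached 10 kb, against 286 of all peaks (0.53%). The median WT level was 3.85 per kb of peak on the log2 scale, against 4.03 for other peaks at genes and 3.97 over all peaks. The ChIP value exceeded the input by a median of 0.63 on the log2 scale, against 0.83 at other genes and 0.79 over all peaks. The ChIP values had been matched to one distribution and the inputs had not, so this difference can be set side by side between groups of peaks but is no absolute enrichment. Counting each gene once by its mean raised it to 0.71.

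Families were alike in level. Per kb of peak, the median WT value of the 12 families with at least 10 peaks ran from 3.79 (IgLON) to 3.91 (semaphorins) on the log2 scale. Differences between such families were larger in the margin over input, from 0.52 for Unc5 to 0.97 for Lrrtm, which is the single gene Lrrtm4.

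The widest member peak, 11250 bp in an intron of Cdh13 (T-cadherin, which lacks a cytoplasmic tail and is held by a GPI anchor), was also the strongest peak of the cadherins. It lay at chr8:118739251-118750500 and had log2 values of 7.26, 7.15 and 7.49 in WT and 7.13, 6.91 and 7.58 in KO. The groups overlapped, with KO replicate 3 the highest of all, and the difference of -0.09 ± 0.14 (SE) did not pass the test (adjusted p = 0.88). The strongest Cntnap peak, 7800 bp wide, lay over an annotated transcript start inside Cntnap4, away from the gene's own start. It had values of 7.0, 7.14 and 7.15 in WT and 6.80, 6.68 and 6.93 in KO. All KO libraries were below all WT libraries at this peak, but the difference of -0.29 ± 0.13 (SE) missed the threshold (adjusted p = 0.40).

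Strongest peaks of other families are given by their differences. None of those at Cntn5, Pcdh9, Epha6, Ntm, Unc5d, Nlgn1, Lrrtm4, Sema6a, Robo1, Plxnc1, Slit1 or Dscam passed the threshold, with KO minus WT from -0.58 at Dscam to 0.25 at Ntm, while the strongest catenin peak, at Ctnna1, did and is described with the decreases. At Robo1, the Slit receptor, the 6 libraries were close, with 5.26, 5.25 and 5.26 in WT and 5.41, 5.42 and 5.41 in KO (adjusted p = 0.84).

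The question of the study was whether deletion of Smarcad1 changed the mark. Of the 1552 member peaks, 6 rose and 2 fell in KO (limma, Benjamini-Hochberg adjusted over all 53761 peaks). That is 0.515% of the members, against 1.66% of all peaks (0.796% increased and 0.863% decreased). The share was thus below the background of the table, also for increases (0.387%). The crypts were measured in bulk, so a change in the share of cells that carry the mark and a change in the mark per cell cannot be told apart. At an unadjusted p under 0.05, 104 members (6.70%) passed, 82 of them with higher KO values, against 10.6% of all peaks.

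The single peak of Pcdh8, a protocadherin with a short gene of 4538 bp, had the smallest adjusted p of the increases. At chr14:79768351-79771200, in the coding exon, the log2 values were 5.79, 4.79 and 4.88 in WT and 6.50, 6.43 and 5.86 in KO. WT replicate 1 nearly reached KO replicate 3, so the gap between the groups was small, and the mean rose from 5.15 ± 0.55 to 6.26 ± 0.35 (SD, n = 3 each). The difference was 1.11 ± 0.20 (SE, adjusted p = 0.000317). The peak held 91.9 CpG per kb with 66.2% GC. It passed with each library left out, but not after subtraction of the input (adjusted p = 0.065).

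At Cdh8, a type II cadherin of neurons, the peak over the gene start rose (chr8:99415051-99417600). The values were 4.57, 4.65 and 4.65 in WT and 5.56, 5.39 and 5.91 in KO. The WT libraries were nearly equal and all KO libraries stood above them, a difference of 1.00 ± 0.21 (SE, adjusted p = 0.00206). In WT its ChIP value minus the unscaled input was -0.33 on the log2 scale, against a median of 0.63 over the members. The input held 31 reads in WT and 26 in KO. The call at this peak was kept with each library left out. The other 31 peaks of Cdh8 did not pass the threshold.

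The largest increases among the members were in weak peaks of introns. At Epha6, a receptor of ephrin-A ligands, the peak at chr16:60516151-60517050 had 3.37, 3.19 and 2.79 in WT and 4.51, 4.60 and 4.35 in KO, a difference of 1.37 ± 0.32 (SE, adjusted p = 0.00742). These values stood for 8 to 10 reads in WT and 19 to 24 in KO. The Cntnap5c peak at chr17:58087951-58088700 had 2.55, 2.45 and 3.11 in WT and 4.34, 3.84 and 4.04 in KO, a difference of 1.37 ± 0.37 (SE, adjusted p = 0.0406), from 5 to 10 and 14 to 18 reads. In neither peak did the groups overlap. Their WT values minus the unscaled input were low (-0.05 and -0.10 on the log2 scale, against a median of 0.63 over the members). The Epha6 call was lost without WT replicate 3 or KO replicate 2 (adjusted p up to 0.063), and the Cntnap5c call was kept only without WT replicate 3 (adjusted p up to 0.23 when another library was left out) and was lost in voom on recovered reads (adjusted p = 0.080).

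The remaining increases were in an intron each of Pcdh9 and Nrxn3. The Pcdh9 peak at chr14:93032101-93033000, 1 of 112 at this gene, had 2.55, 3.04 and 3.50 in WT and 4.25, 4.42 and 4.42 in KO (difference 1.33 ± 0.33 SE, adjusted p = 0.0185). These values stood for 5 to 13 reads in WT and 16 to 23 in KO. The WT value of this peak minus the unscaled input was low too (-0.14 on the log2 scale). The Nrxn3 peak at chr12:90083701-90085200, 1 of 59 at the gene of this presynaptic neurexin, had 3.99, 3.77 and 3.97 in WT and 4.73, 4.91 and 5.02 in KO (difference 0.98 ± 0.26 SE, adjusted p = 0.0279). The KO libraries were above the WT libraries in both. The Pcdh9 call was lost without WT replicate 1, KO replicate 2 or KO replicate 3 (adjusted p up to 0.12). The Nrxn3 call was kept only without KO replicate 1 (adjusted p up to 0.13 when another library was left out). After subtraction of the input, with 11 reads in WT and 17 in KO, its difference was 0.35 (adjusted p = 0.26).

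Both decreases were in strong intron peaks. At Ctnna1, the alpha-catenin of epithelial adherens junctions, the single peak (chr18:35144101-35147400) had 6.15, 6.30 and 6.09 in WT and 5.53, 5.45 and 4.87 in KO. It lay 5199 bp from the nearest annotated transcript start. All KO libraries were below all WT libraries, and the mean fell by 0.90 on the log2 scale, from 6.18 ± 0.11 to 5.28 ± 0.36 (SD, n = 3 each, adjusted p = 0.00142), also with each library left out. The Cdh4 peak (R-cadherin, chr2:179459251-179464500, 15018 bp from the nearest transcript start) had 7.24, 7.20 and 7.07 in WT and 6.69, 6.81 and 6.55 in KO, and its mean fell by 0.49 on the log2 scale (SE 0.13, adjusted p = 0.0377). This call was kept only without KO replicate 2 (adjusted p up to 0.19 when another library was left out), and it was lost after subtraction of the input (-0.38, adjusted p = 0.22). The input held 39 reads in WT and 35 in KO at Ctnna1, and 53 and 49 at Cdh4.

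**Figure D3:**
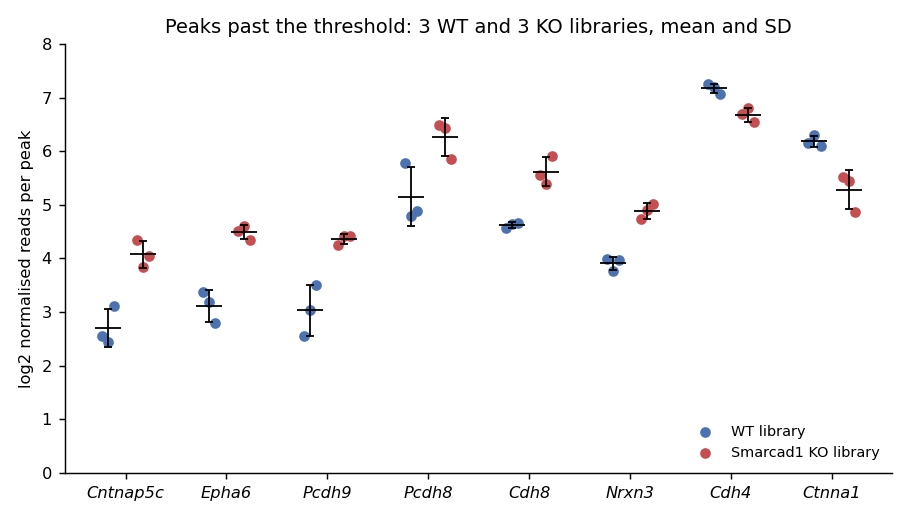
Log2 normalised reads per peak (y axis) in 3 WT (blue) and 3 KO (red) libraries for the 8 member peaks past the threshold, ordered by difference, with mean and SD as black marks. KO libraries lie above WT in 6 peaks and below in 2, Cdh4 and Ctnna1, with no overlap in any. All 8 calls were lost under a variance prior without an intensity trend.

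Of the other gut epithelial member with peaks, Sema3c, none of the 3 peaks passed. The nearest to it, in an intron, had 4.50, 4.75 and 4.55 in WT and 5.03, 5.23 and 4.92 in KO. The groups did not overlap there, and the difference of 0.46 ± 0.22 (SE) had an adjusted p of 0.45. After subtraction of the input, with 20 reads in WT and 9 in KO, the difference at this peak was 1.61 (adjusted p = 0.00107). That fit takes no account of the noise of the single inputs, and it called 29.5% of all peaks.

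Across the members, small differences leaned towards KO. The median difference, KO minus WT, was 0.09 on the log2 scale against 0.00 over all peaks, and 968 members (62.4%) had the higher mean in KO, against 50.3% of all peaks. KO libraries were all above WT libraries in 148 members (9.54%, against 7.2% of all peaks) and all below in 46 (2.96%, against 8.42%). The mean over the members was 3.99, 3.97 and 3.98 in WT and 4.06, 4.02 and 4.14 in KO, so that the KO libraries lay above the WT libraries and KO replicate 3 was the highest. Neighbouring peaks of 1 gene are not independent, and no test was made of this mean.

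**Figure D4:**
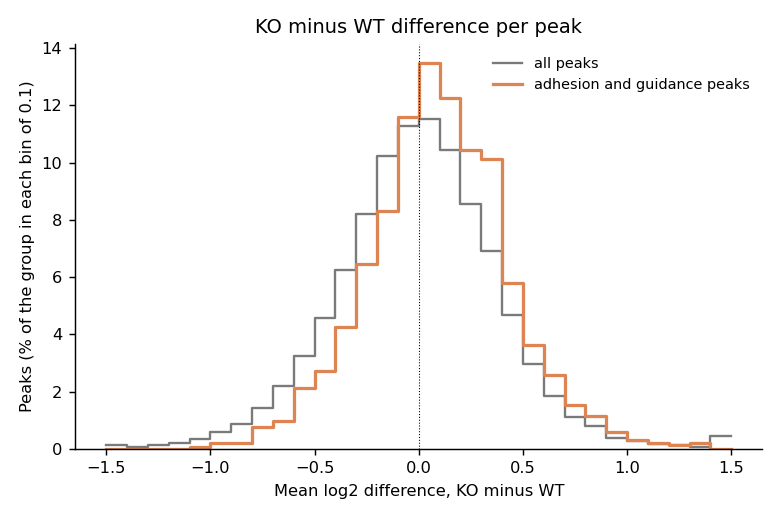
Share of peaks (y axis, in percent per bin of 0.1) by their mean difference KO minus WT (x axis, log2 scale), for the 1552 members (orange) and all 53761 peaks (grey); differences beyond 1.5 are counted in the outer bins. The members' curve lies to the right of the other, with medians of 0.09 and 0.00.

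This lean was present with each library left out, when the members' median ran from 0.07 (without KO replicate 3) to 0.13 (without KO replicate 2). It was present in each of 5 equal bins of the peaks by GC content (members' medians from 0.07 to 0.15, other peaks from -0.04 to 0.03), by mean level (from 0.07 to 0.13, others from -0.02 to 0.01) and by soft-masked share (from 0.05 to 0.11). In the bin with the fewest soft-masked bases, the other peaks had a median of 0.08 as well, close to the members' 0.10, and 584 members fell in that bin. The median input difference, KO minus WT, was -0.13 at the members and -0.09 over all peaks, and the summed input reads differed by -0.12 and -0.08 on the log2 scale. The inputs are unscaled single libraries, and their part in the lean was not tested. Over read numbers recovered from the values, the median was 0.06 at members and -0.02 over the peaks fitted.

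By family, the KO libraries all lay above the WT libraries in 7 of 16, namely cadherins, protocadherins, contactins, catenins, IgLON proteins, neurexins and Unc5. They overlapped in 8 and lay below in 1, Dscam, which has 2 peaks. The IgLON mean was 3.89, 3.91 and 3.82 in WT and 4.13, 3.93 and 4.13 in KO over 78 peaks, the widest gap of the families with at least 10 peaks (0.19), though KO replicate 2 was close to WT. Contactins had 3.85, 3.86 and 3.85 in WT and 3.93, 3.94 and 4.01 in KO, with a spread within WT of 0.0073 (SD). Of the 12 families with at least 10 peaks, Lrrtm was the one with a lower KO mean (-0.04). Counting each gene once turned the sign for Eph receptors, Unc5, catenins, neurexins, semaphorins and plexins, so these family means rested on their genes with most peaks.

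**Figure D5:**
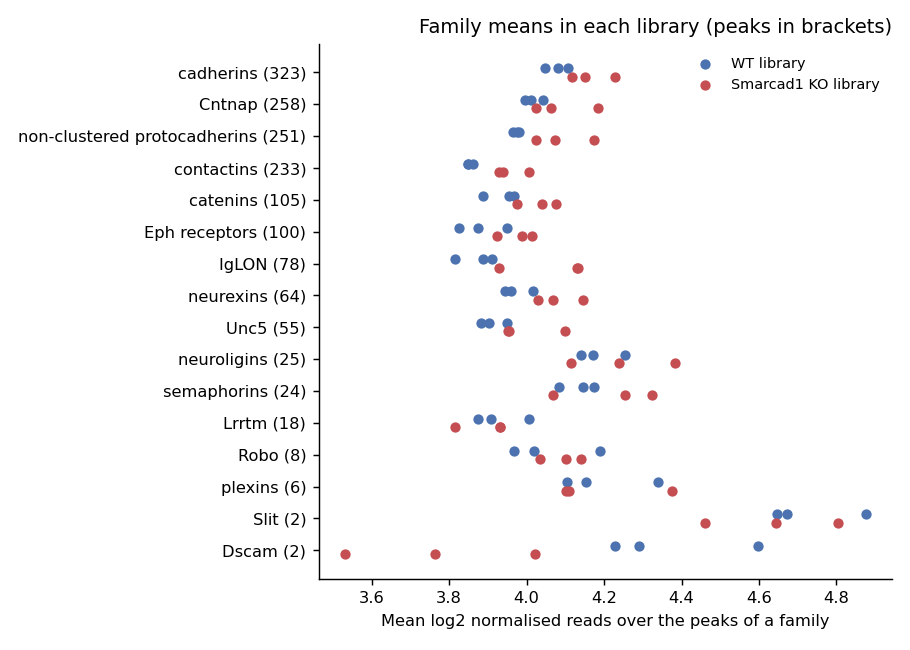
Mean log2 normalised reads over the peaks of each family (x axis) in each WT (blue) and KO (red) library, with the number of peaks in brackets (y axis). KO libraries are above WT in 7 families, of which contactins are the most tightly grouped in WT, and Dscam with 2 peaks is the one with KO below.

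Of the 30 genes with at least 10 peaks, 28 had a median difference above 0, with a range from -0.16 to 0.25. Neurotrimin (Ntm) was at the upper end, with higher KO values in 31 of 39 peaks and gene means of 3.90, 3.84 and 3.72 in WT and 4.16, 3.91 and 4.18 in KO. Cntnap5b was at the lower end, with higher KO values in 7 of 26 peaks and means of 3.86, 3.96 and 3.89 in WT against 3.74, 3.59 and 3.74 in KO. The groups did not overlap in either gene. In the fit with 1 mean per gene, neither passed (Ntm 0.26 ± 0.19 SE, adjusted p = 0.48, and Cntnap5b -0.21 ± 0.19 SE, adjusted p = 0.61).

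In that fit, 0 member genes increased and 1 decreased among 68, against 1.26% increased and 2.6% decreased of all 5543 genes (3.86% in all). The decrease was Ctnna1, with 1 peak (adjusted p = 0.0254), and Pcdh8 came next (adjusted p = 0.0502). At an unadjusted p under 0.05 there were 8 member genes, 4 with higher and 4 with lower KO means (11.8%, against 19.8% of all genes). The Ctnna1 gene call was lost without WT replicate 1, 2 or 3 or KO replicate 2, and Pcdh8 passed without WT replicate 1 (adjusted p = 0.0175). The standard error in this fit combines the spread of the gene with a prior that follows the mean level, and it takes no account of the number of peaks behind a mean.

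The 14 member peaks over an annotated transcript start had a median difference of 0.33, and 12 of them had the higher mean in KO. Some of these starts lie inside the gene, away from its own start. The Pcdh8 peak, 4 bp from a transcript start, is not among the 14. The 652 start-site peaks of other genes had a median of 0.05 and 58.1% with the higher mean in KO. Next to Cdh8, higher KO means were found at a transcript start inside Lsamp (0.60, adjusted p = 0.24) and at the start of Cntnap5a (0.51, adjusted p = 0.33). The same held for 1 start of Pcdh15 (0.44, adjusted p = 0.69), and none of these passed. The input held 31 reads in WT and 24 in KO at the Lsamp peak. It was higher in KO at Cntnap5a (17 in WT and 34 in KO) and at this Pcdh15 start (7 and 12), and its part was not tested. The exceptions to a higher KO mean, both at a transcript start inside the gene, were Cntnap4 and Plxnc1, a receptor of Sema7a (-0.53, adjusted p = 0.54). These peaks were richer in CpG than the rest of the members, with a median of 19.6 per kb against 5.83, and closer to input in WT (0.38 against 0.64). The part of base composition in the difference was not tested.

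The wider pathway was read from 72 other adhesion and guidance genes, such as netrins, ephrins, neuropilins, Ncam, desmosomal cadherins and scaffold proteins. Of these, 29 had 335 peaks under the listed names, led by Cadm2 (77), Ptprd (59), Ncam2 (43), Magi2 (42) and the netrin receptor Dcc (40). Listed too, Tenm3 held 95 peaks and Tenm2 15 by gene identifier, but these are not in the count of 335. The shares given here do not cover them. In KO, 0 of the 335 peaks rose and 2 fell by the same limma fit (0.597%, against 1.66% of all peaks). At an unadjusted p under 0.05, 9 were higher and 11 lower (5.97%, against 10.6%), so both shares were below those of the whole table. The decreases were at Dsg2, a desmosomal cadherin of epithelia (mean 6.40 ± 0.09 in WT and 5.59 ± 0.27 in KO, SD, n = 3, adjusted p = 0.00176), and Dlg1, a junctional scaffold (4.73 ± 0.68 and 3.52 ± 0.67, adjusted p = 0.0294). The median difference of the 335 peaks was 0.07, and 57.3% had the higher mean in KO.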

How the data were processed

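The authors trimmed the reads with Trim Galore (0.6.1 per the labels), mapped them to GRCm38 with Bowtie2 2.3.2, kept a mapping quality of at least 20 and ran the MACS peak caller of SeqMonk on the pooled ChIP libraries against the inputs (fragment size 300 bp, p threshold 1e-05). Replicates were thus not called apart. The deposited ChIP values are log2 reads per peak, whose distributions the authors made the same in the 6 libraries, which sets the library totals equal. The deposited input values are unscaled log2 reads. A second deposited table holds the authors' own fold changes and p-values, and was not used.

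All 53761 peaks were fitted with limma 3.58.1 in R 4.3.3 (eBayes with an intensity trend, genotype alone, two-sided, Benjamini-Hochberg adjusted p under 0.05), and the mean over the peaks of each of 5543 genes likewise. The fit was checked on simulated data with known changes. Reads were recovered by ranking the distinct values, up to 100 reads. Gene models were GENCODE M21, and sequence, GC and soft-masked bases came from the RefSeq GRCm38 assembly. Tables were made with Python 3.11.15 and pandas 2.3.3, and figures with matplotlib 3.10.9.

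Peaks are named if called, strongest of a family (1 is not reported here), widest, or in the list of 12 gut epithelial genes. Genes are named if they have at least 10 peaks. Genes at the ends of a ranking (Sema5a, Slit2, Lsamp, Plxnc1, Unc50), Cntnap4 at a start site, the leaders of the wider pathway, Tenm3 and Tenm2 were named after their values were seen. The members and lists were chosen with earlier results of these data known. Alternatives were the variance prior, a mean of at least 4, centring, a further quantile normalization, subtraction of input, the replicate block, left-out libraries, stricter thresholds, voom on recovered reads and other averaging. The depth was 14 to 19 reads per member peak at the median, which limits what a single peak can show.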

Additional observations from a re-analysis of the deposited data

How the results depend on the processing

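The variance prior and the input moved the counts most. Without an intensity trend, 0 member peaks rose and 0 fell, and 0 genes fell, against 112 increases and 15 decreases over all peaks. After subtraction of the input, 328 member peaks rose and 148 fell, and 4 genes rose and 6 fell, against 9361 and 6512 over all peaks. That fit subtracts the same input from the 3 libraries of a genotype, so the noise of 1 input enters the difference but not the spread. At an adjusted p under 0.01, 3 peaks rose and 1 fell, with 0 genes, and with an absolute log2 difference of at least 1, 0 peaks and 0 genes fell. Voom on recovered reads gave 5 increases and 1 decrease, where the limma fit gave 6 and 1 on the same 52431 peaks of up to 100 reads, which leave out Cdh4. The increase lost was Cntnap5c. With 1 library left out, 2 (without KO replicate 2) to 6 peaks rose (3 without KO replicate 3) and 1 to 2 fell (1 in each case except KO replicate 2), while 0 to 1 genes rose and 0 to 1 fell. When means under 4 on the log2 scale were left out, 1 gene rose, Pcdh8. Centring and a further quantile normalization left all 4 counts as they were.

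Whether replicate numbers pair the libraries was not decided. The correlations of same-numbered deviations were -0.0013, 0.0191 and 0.0164, and those of different-numbered deviations ran from -0.0235 to 0.0074. Where peaks hold so few reads, counting noise keeps such correlations small, so low values do not exclude pairing. The replicate block gave 6 increased and 2 decreased peaks, 1 increased gene (Pcdh8) and 1 decreased gene.

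The median excess over input was 0.71 with each gene counted once and 0.63 to 0.66 with 1 library left out. The family means, KO minus WT, moved with the averaging. Each gene counted once gave -0.034 for Eph receptors, -0.022 for Unc5, -0.13 for catenins, 0.18 for contactins, -0.15 for neurexins, 0.27 for protocadherins, 0.15 for plexins and -0.079 for semaphorins. The median over peaks gave 0.030 for Eph receptors, 0.12 for Lrrtm, -0.15 for Robo, 0.17 for Unc5, 0.17 for catenins, 0.073 for contactins and -0.15 for semaphorins. The cause was not tested.

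The sign of a strongest or epithelial peak that had not passed turned in some cases. With 1 library left out, the difference ran from -0.027 to 0.25 at Nlgn1, from -0.038 to 0.33 at a Sema3c exon, from -0.34 to 0.084 at Lrrtm4, from -0.038 to 0.13 at Unc5d, from -0.28 to 0.055 at Cdh13 (0.00018 without WT replicate 3), from -0.29 to 0.034 at Pcdh9 and from -0.15 to 0.16 at Epha6. Subtraction of the input turned the other Sema3c exon (-0.23), Cdh13 (0.0013), Cntn5 (0.32), Robo1 (-0.40) and Slit1 (0.039). It brought past the threshold a Sema3c intron peak (1.61) and the strongest peaks of Epha6 (0.76) and Dscam (-1.77). Voom turned Epha6 (-0.036).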
